A study of Mus musculus with 10 samples.

Results

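The 4 mouse genes of the Mex3 family, Mex3a, Mex3b, Mex3c and Mex3d, were picked by symbol from a RIP-seq matrix of 15899 genes, in which all 4 were measured. RIP-seq sequences the RNA that comes down with an antibody, here an anti-FLAG antibody used on neurosphere cultures, which are floating colonies of neural stem cells grown with EGF and FGF. The cells came from the subependymal zone of the adult brain of mice aged 10 weeks. In the FLAG cultures (Mex3aFLAG/FLAG, homozygous knock-in) the endogenous MEX3A protein carries a FLAG tag at its C-terminus. The WT cultures (Mex3a+/+) have the same background and no tag, so their pull-downs hold RNA that was recovered without the tagged protein. The immunoprecipitation (IP) was done on formaldehyde-crosslinked cells (2 FLAG and 2 WT libraries) and on native, non-crosslinked cells (3 FLAG and 3 WT libraries). The labels name no other allele. Nothing in the labels ties a replicate number to one animal, so a p-value measures the spread between these libraries.

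MEX3 proteins bind RNA through KH domains and carry a RING finger, a domain found in E3 ubiquitin ligases, at their C-terminus. The founding member, MEX-3 of Caenorhabditis elegans, represses the translation of specific maternal mRNAs in the early embryo. The sequence preferred by MEX-3 is known as the MEX-3 recognition element (MRE), a bipartite motif of short AU-rich and purine-rich parts that can be searched for in 3' UTRs. Of the mammalian proteins, MEX3C is known for the decay of MHC class I mRNA and MEX3D (also named TINO) for binding the AU-rich element of Bcl2 mRNA.

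The genes lie on different chromosomes of the GRCm38 build. Mex3a lies at chr3:88532395-88541396 (plus strand), Mex3b at chr7:82867333-82871515 (plus) and Mex3d at chr10:80380355-80387659 (minus). In GENCODE M21 the transcripts have 3' UTRs of 4215 nt (Mex3a), 1306 nt (Mex3b), 1779 nt (Mex3c) and 870 nt (Mex3d). The median over the 12084 measured genes with an annotated 3' UTR was 1223 nt. The tag of the FLAG cultures is encoded immediately before the Mex3a stop codon, in the last exon, and upstream of the 3' UTR. The first window below gives the reference sequence at that site, with the stop codon in capitals. The other windows lie in 3' UTRs and show where the letters of the MRE fall. In the Mex3b and Mex3d windows the capitals mark a run that these genes, and Mex3c, hold near the end of the transcript. In the second Mex3a window they mark overlapping MRE matches. All are written 5' to 3' on the strand of the gene.
Mex3a stop codon, chr3:88537152-88537181 (plus strand): gccacacaagccatccgaatattttccTAA
Mex3b 3' UTR, chr7:82871448-82871477 (plus strand): ttgaaattgtatcaAGAGTTTTATttttct
Mex3d 3' UTR, chr10:80380396-80380425 (minus strand): aaaacattgtatccAGAGTTTTATttttgg
Mex3a 3' UTR, chr3:88539315-88539344 (plus strand): aaactTTAGAAGGTTTAGAATATAtgtagg

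The run AGAGTTTTAT ends 44 nt before the end of the Mex3b transcript and 47 nt before the end of the Mex3d transcript, and it holds both written forms of the MRE. It was found in 66 of the 12084 3' UTRs (0.546%) and in the last 100 nt of 7 of them (0.0579%), of which 3 were Mex3b, Mex3c and Mex3d. A longer run, ATATTTTATTTTA, occurred in the 3' UTRs of Mex3a, Mex3b and Mex3d and in 15 of the 12084 in all (0.124%). It lies 127 nt before the end in Mex3b and 146 nt before the end in Mex3d, but 2106 nt before the end in Mex3a. These runs were chosen after comparing the sequences of the family, and a match of letters is not evidence of binding.

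Beyond these runs, every pair of the Mex3 mRNAs shared 1 alignable block of 217 to 274 nt in the 3' UTR. Identity over the aligned bases was highest between Mex3b and Mex3c (85.1%), followed by Mex3b and Mex3d (78.9%) and Mex3c and Mex3d (78.5%). Identity with Mex3a was lower, at 72.0% for Mex3c, 68.3% for Mex3b and 66.0% for Mex3d. The block ended 2 to 24 nt from the transcript end of Mex3b, Mex3c and Mex3d. In Mex3a it ended 1976 to 1993 nt before the transcript end, so the longer Mex3a 3' UTR continues well past it. The coding sequences of the pairs were 60.5% to 69.5% identical. The longest identical run between any pair was 29 nt (Mex3b and Mex3d), which is shorter than the 75 nt reads, so no full-length read could match a pair of these mRNAs without a mismatch.

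The 3' UTRs held 13 MRE matches in Mex3a, 6 in Mex3b, 9 in Mex3c and 3 in Mex3d, counting overlapping matches on the strand of the mRNA, in the main written form of the motif. Per kb this was 3.08, 4.59, 5.06 and 3.45, and over the 3' UTRs of all measured genes it was 2.80. MRE matches are common, since 76.4% of these 3' UTRs held at least 1, and 3' UTRs at least as dense as that of Mex3c made up 11.5%, against 34.2% for Mex3a. With the other form of the second part of the motif the counts were 9, 4, 11 and 4, or 2.14, 3.06, 6.18 and 4.60 per kb against 2.60 over all genes. Mex3a thus lay above that density in one form and below it in the other. The last 500 nt make up 11.9% of the 3' UTR of Mex3a, 38.3% of that of Mex3b, 28.1% of that of Mex3c and 57.5% of that of Mex3d. In the main form 1 of 13, 5 of 6, 5 of 9 and 3 of 3 matches lay there, and in the other form 2 of 9, 2 of 4, 5 of 11 and 4 of 4.

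The values are the authors' normalized values on a log2 scale, used as deposited. The number of reads is unknown, because the values of each library, taken off the log scale, add up to between 949427 and 949437. Libraries with few reads have many genes tied at their lowest value. Such ties were most frequent in native FLAG replicate 1 (329 genes) and replicate 3 (178 genes), and numbered no more than 3 in each of the other 8 libraries. The remaining native FLAG library, replicate 2, differed from both in the Mex3 genes. Of 8 neural stem cell markers 7 were measured (Gfap is not analysed here), and the log2 of their summed level was 10.88 to 11.37 in all 10 libraries, with Egfr, Slc1a3 and Nes the highest. For 3 mature neuron markers (Rbfox3, Snap25 and Syt1) it was lower in FLAG (3.55 to 4.41) than in WT (4.84 to 5.31). Of these only Rbfox3 passed the test described below, with a log2 difference of -1.31 (SE 0.17, limma adjusted p = 0.0127). Cd24a, found on neuroblasts, differed the other way, with a log2 difference of 1.24 (SE 0.32, limma adjusted p = 0.103). Of the oligodendrocyte, microglia, endothelium and ependyma markers 1 gene of each list was measured and 0 were called. The part of these differences in the values of the Mex3 genes was not tested.

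Mex3a mRNA had higher values in every pull-down of the tagged cultures than in any of the untagged cultures of the same protocol, a difference that did not pass the test adjusted over all genes. In the crosslinked libraries its log2 values were 3.92 and 4.16 in FLAG and 2.75 and 3.03 in WT. In the native libraries they were 5.95, 4.03 and 6.10 in FLAG (replicates 1 to 3) and 3.33, 3.52 and 2.89 in WT. The groups did not overlap in either protocol, and in the native FLAG group replicate 2 lay far below the others, nearer to the WT libraries. In the untagged pull-downs Mex3a lay above 47.9% to 60.3% of all genes, close to the middle of the matrix. In the tagged ones it lay above 66.5% and 69.9% (crosslinked) and above 68.0% to 90.4% (native). The log2 fold change was 1.15 (SE 0.15, a fold of 2.22) in the crosslinked libraries and 2.11 (SE 0.50) in the native libraries. In the order of fold change over the 15899 genes it took place 259 in the first and place 118 in the second. A pull-down value combines bound RNA with the level of the RNA in the cells, and fewer cells that express a gene cannot be told apart from less RNA per cell. Input RNA is not analysed here.

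Mex3b had the same direction. With crosslinking its log2 values were 1.77 and 2.66 in FLAG and 1.13 and 0.97 in WT. In the native libraries they were 3.30, 1.98 and 3.30 in FLAG and 1.25, 1.60 and 0.01 in WT. Again no FLAG value fell below a WT value, and again native FLAG replicate 2 was the lowest of its group. The WT libraries spread over more than one log2 unit in the native protocol, where replicate 3 was the lowest. The log2 fold change was 1.17 (SE 0.34) with crosslinking and 1.91 (SE 0.51) without. The crosslinked value was 0.72 without crosslinked FLAG replicate 2 and 1.61 without replicate 1. With a pseudocount of 8 the values fell to 0.34 with crosslinking and 0.63 without.

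Mex3c was the one member whose groups overlapped in a protocol. With crosslinking its log2 values were 4.75 and 5.20 in FLAG and 3.64 and 3.68 in WT, where the replicates were nearly equal. In the native libraries they were 5.08, 3.80 and 5.74 in FLAG and 3.49, 3.96 and 3.31 in WT. Native FLAG replicate 2 lay below native WT replicate 2, while the other native FLAG libraries lay above every WT library. The log2 fold change was 1.31 (SE 0.18) with crosslinking and 1.29 (SE 0.45) without. The native value was 0.85 without native FLAG replicate 3 and 1.82 without replicate 2.

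Mex3d had the largest fold change of the family in the crosslinked libraries on the values as deposited, but with a pseudocount of 8 (log2 fold change 0.54) it lay below Mex3c (0.93) and Mex3a (0.66). Its log2 values there were 2.48 and 3.07 in FLAG and 1.05 and 1.34 in WT. In the native libraries they were 3.35, 1.99 and 4.15 in FLAG and 1.14, 1.90 and 0.71 in WT. The groups did not overlap, but native FLAG replicate 2 and native WT replicate 2 were close to each other (1.99 and 1.90). The log2 fold change was 1.58 (SE 0.25) with crosslinking and 1.91 (SE 0.55) without, which was place 97 and place 167 in the order of all genes.

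**Figure D1:**
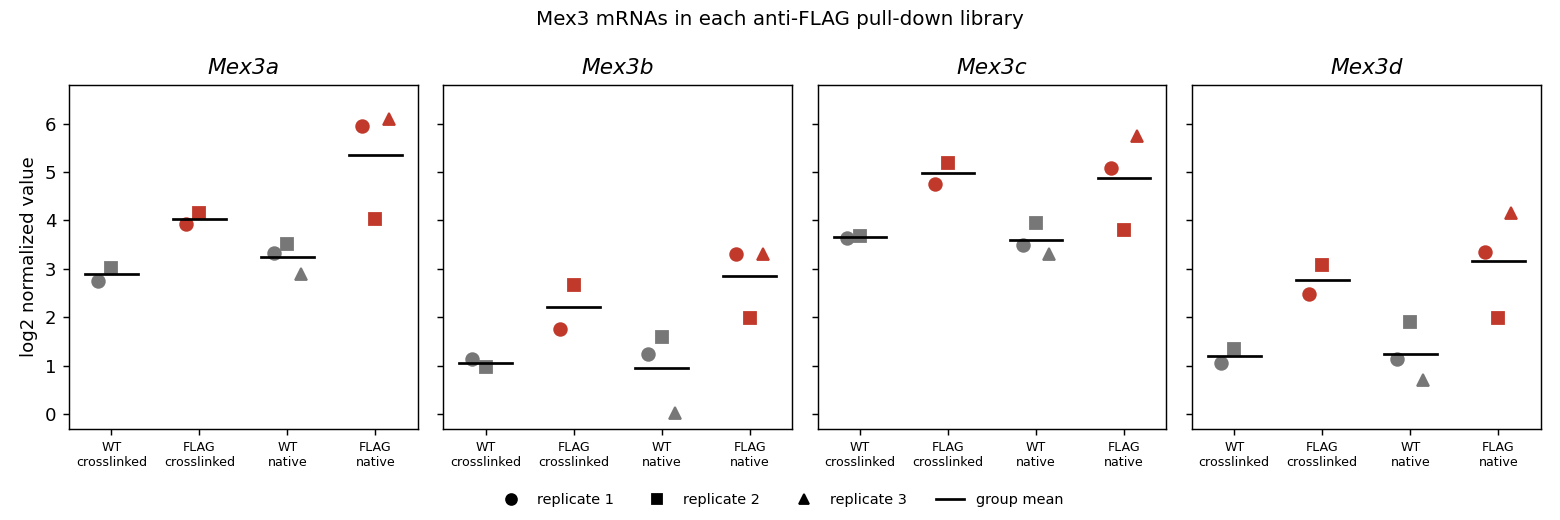
Log2 normalized value (y axis) of each Mex3 mRNA in the 10 libraries, with WT in grey, FLAG in red, a symbol per replicate number and a bar at each group mean. The FLAG libraries lie above the WT libraries of the same protocol, except for native replicate 2 of Mex3c (3.80 in FLAG against 3.96 in WT).

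All 4 mRNAs had FLAG values above the WT values without overlap in the crosslinked libraries, as did 19.1% of all genes. In the native libraries 3 of the 4 did, against 8.62% of all genes, and the same 3 did so in both protocols, against 4.84%. A log2 fold change above 0.58 in both protocols was found for all 4 and for 4.16% of all genes. Over all genes the median log2 fold change was -0.02 with crosslinking and -0.04 without, and over the 4 Mex3 genes it was 1.24 and 1.91.

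A gene was called when its adjusted p-value in limma (Benjamini-Hochberg over all 15899 genes) was under 0.05 and its log2 fold change was past 0.58. By this rule 0 of the 4 Mex3 genes were called in the crosslinked libraries (adjusted p from 0.340 to 0.571) and 0 in the native libraries (0.201 to 0.259). No gene at all was called higher in FLAG within a protocol (0%), and 0.107% of all genes were called lower in the native libraries. At an unadjusted limma p under 0.05 with the same fold change limit, all 4 Mex3 genes passed in each protocol, against 2.78% of all genes with crosslinking and 7.77% without. The protocols share no library, and a joint fit of the 10, adjusted for protocol, uses the same values again. In that fit the limma adjusted p-values were 0.0746 (Mex3d), 0.0789 (Mex3a), 0.0865 (Mex3b) and 0.0879 (Mex3c), and 0 of the 4 were called, against 0.264% of all genes called higher and 0.233% called lower. At an unadjusted limma p under 0.05 the 4 passed there too, against 7.24%.

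These calls depended on single libraries. Without native FLAG replicate 2, all 4 Mex3 genes were called in the native libraries (9.12% of all genes were) and over all libraries (3.25%), and the native log2 fold changes lay between 1.82 (Mex3c) and 2.78 (Mex3a). With array weights, which give libraries that fit poorly less weight, all 4 were called as well, in the native libraries (10.4% of all genes) and over all libraries (6.95%). The lowest native weight was that of native FLAG replicate 2 (0.29), but over all libraries that library had a weight of 1.27, and native FLAG replicates 1 (0.12) and 3 (0.16) had the lowest weights. Without crosslinked WT replicate 2, Mex3a and Mex3d were called over all libraries (1.14% of all genes were). The native FLAG libraries with the highest Mex3 values, replicates 1 and 3, were those with the most genes tied at the lowest value. Without them the native log2 fold changes were 0.78, 1.02, 0.21 and 0.74 for Mex3a, Mex3b, Mex3c and Mex3d. The part of depth in the native values was not tested.

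**Figure D2:**
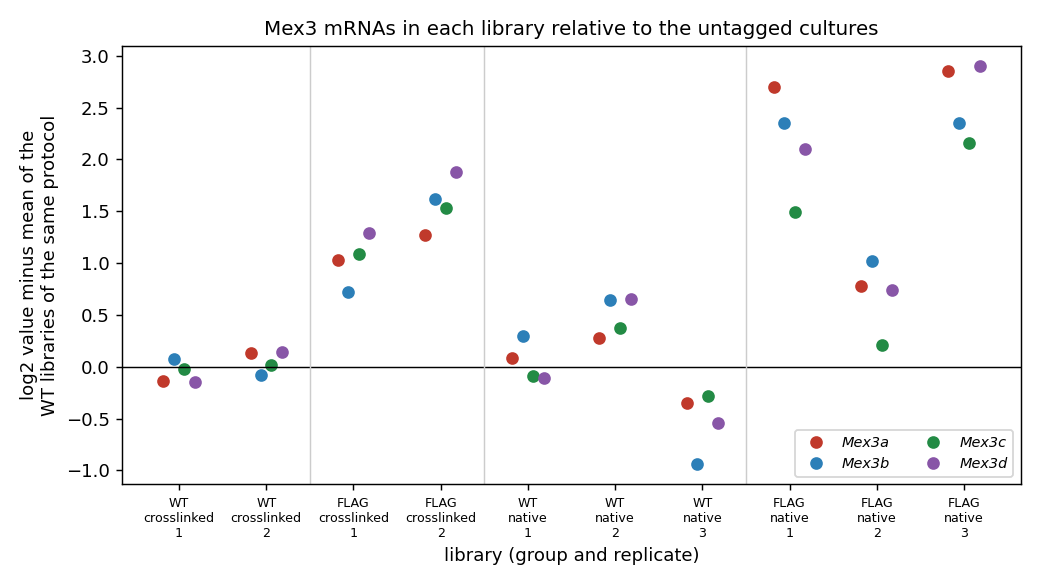
Log2 value of each Mex3 mRNA in each library minus the mean of the WT libraries of the same protocol (y axis), with 1 colour per gene. Crosslinked FLAG libraries lie between 0.72 and 1.88, native FLAG replicates 1 and 3 between 1.49 and 2.90, and native FLAG replicate 2 between 0.21 and 1.02.

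The order of the libraries was much the same for all members. Native FLAG replicate 2 was the lowest of its group for every member, and crosslinked FLAG replicate 2 was the higher of the pair for every member. Native WT replicate 3 was the lowest and native WT replicate 2 the highest of the untagged native libraries in each of the 4. The share of all genes with this order is not given here, so the order is not shown to be particular to the family. Over the 10 libraries Pearson's r between members was highest for Mex3c and Mex3d (0.976) and lowest for Mex3a and Mex3c (0.867), with 0.951 for Mex3b and Mex3d. This is a description of 10 points that fall into the study's 4 groups and share their libraries. Among all other genes Mex3d was the third most like Mex3c, and Mex3c was the tenth most like Mex3d. In the order of Mex3a, Mex3d took place 330 and Mex3c place 945. The place of Mex3a depended on the measure. By Spearman's correlation Mex3a with Mex3d (0.964) equalled Mex3c with Mex3d (0.964). With the group means subtracted Pearson's r was 0.979 for Mex3c and Mex3d, 0.946 for Mex3a and Mex3c and 0.919 for Mex3a and Mex3d, and the pairs with Mex3b were lowest, at 0.805 to 0.855.

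The genes most like each member over the 10 libraries were other genes with higher values in FLAG. For Mex3a they were Gm26811, annotated as an antisense RNA (r of 0.996), Nras, a small GTPase (0.992), and Sh3glb1 (0.992). For Mex3b they were Gas1, a Hedgehog co-receptor (0.984), the anti-apoptotic Mcl1 (0.980) and the Wnt receptor gene Fzd1 (0.972). For Mex3c they were Spry2, an inhibitor of receptor tyrosine kinase signalling (0.993), Scoc (0.981) and Mex3d itself. For Mex3d they were Cggbp1, which binds CGG repeats (0.996), Scoc (0.987) and Smim15 (0.982). Their log2 fold changes ranged from 0.36 (Sh3glb1) to 1.92 (Cggbp1) with crosslinking, and from 0.66 to 2.40 for the same genes without it.

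The members could be compared with each other in their FLAG over WT difference, since both values of a pair come from the same library. Of the 6 pairs none passed after adjustment over the 6 (two-sided exact permutation of the FLAG and WT labels within protocol, with a smallest possible p of 0.0167). With 6 pairs, 1 pair at that smallest p reaches an adjusted p of 0.1 and 2 such pairs 0.05, so no 1 or 2 pairs could have passed, and the absence of a passing pair says little. The pair nearest to it was Mex3c and Mex3d. The log2 fold change of Mex3c was lower than that of Mex3d, by a difference of -0.48 (95% interval -0.78 to -0.19, exact p = 0.0167, adjusted p = 0.1). This difference was -0.27 with crosslinking and -0.63 without. It depended on the scale, since it was -0.21 with a pseudocount of 1 and turned to 0.26 with a pseudocount of 8. Mex3a minus Mex3c was 0.43 (0.07 to 0.79, exact p = 0.0833, adjusted p = 0.25), but it was -0.16 with crosslinking and 0.82 without, so its sign depended on the protocol. Mex3a and Mex3d differed by -0.05 (-0.51 to 0.40), and Mex3a and Mex3b by 0.12 (-0.56 to 0.79). These too depended on the scale. With a pseudocount of 8 Mex3a minus Mex3d turned to 0.51 and Mex3a minus Mex3b was 0.67 (each exact p = 0.0167, the smallest possible, and adjusted p = 0.05, which is not under the threshold). Intervals of this width do not show that the mRNA of the tagged gene and those of its relatives were equally enriched.

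The untagged pull-downs, which are the WT side of the comparisons above, were also compared between protocols. Crosslinked over native, the log2 difference in WT was -0.36 for Mex3a (SE 0.23), 0.10 for Mex3b (SE 0.50), 0.08 for Mex3c (SE 0.22) and -0.06 for Mex3d (SE 0.39). The limma adjusted p-values ran from 0.584 (Mex3a) to 0.968 (Mex3d). The same numbers appear to pair libraries across the protocols of a genotype (deviations correlated at r from 0.15 to 0.39 in 4 pairs, 0.30 and 0.39 in WT). With the replicate number as a block the log2 differences were -0.53 for Mex3a (SE 0.19), -0.38 for Mex3b (SE 0.33), -0.06 for Mex3c (SE 0.19) and -0.33 for Mex3d (SE 0.31). Each of these equals the difference without native WT replicate 3, since the block gives that unpaired library no part in it. The turn of sign for Mex3b and Mex3c thus came with the loss of that library. The lowest blocked limma adjusted p-value was 0.346 (Mex3a). Without the block the groups overlapped for Mex3a, since the crosslinked WT value 3.03 lay above the value 2.89 of native WT replicate 3, which has no crosslinked partner. None of the 4 was called, and 0.0252% of all genes were called higher and 0.0126% lower.

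The FLAG effect in native minus that in crosslinked libraries was a log2 difference of 0.96 for Mex3a (SE 0.74), 0.74 for Mex3b (SE 0.77), 0.33 for Mex3d (SE 0.80) and -0.02 for Mex3c (SE 0.65). Single libraries moved these values. With 1 library left out they ran from 0.59 (without native FLAG replicate 3) to 1.63 (without native FLAG replicate 2) for Mex3a and from 0.27 (without native WT replicate 3) to 1.19 (without crosslinked FLAG replicate 2) for Mex3b. For Mex3c and Mex3d the sign turned, from -0.46 and -0.16 without native FLAG replicate 3 to 0.51 and 0.92 without native FLAG replicate 2. None of these differences passed the test of the interaction (limma adjusted p of at least 0.970), and the share of all genes called there was 0%. The larger native values of Mex3a and Mex3b rest on native FLAG replicates 1 and 3. In the FLAG cultures themselves, mean Mex3a was 4.04 ± 0.17 (SD, n = 2) with crosslinking and 5.36 ± 1.15 (SD, n = 3) without. For Mex3c the corresponding means were 4.97 ± 0.32 and 4.87 ± 0.99.

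**Figure D3:**
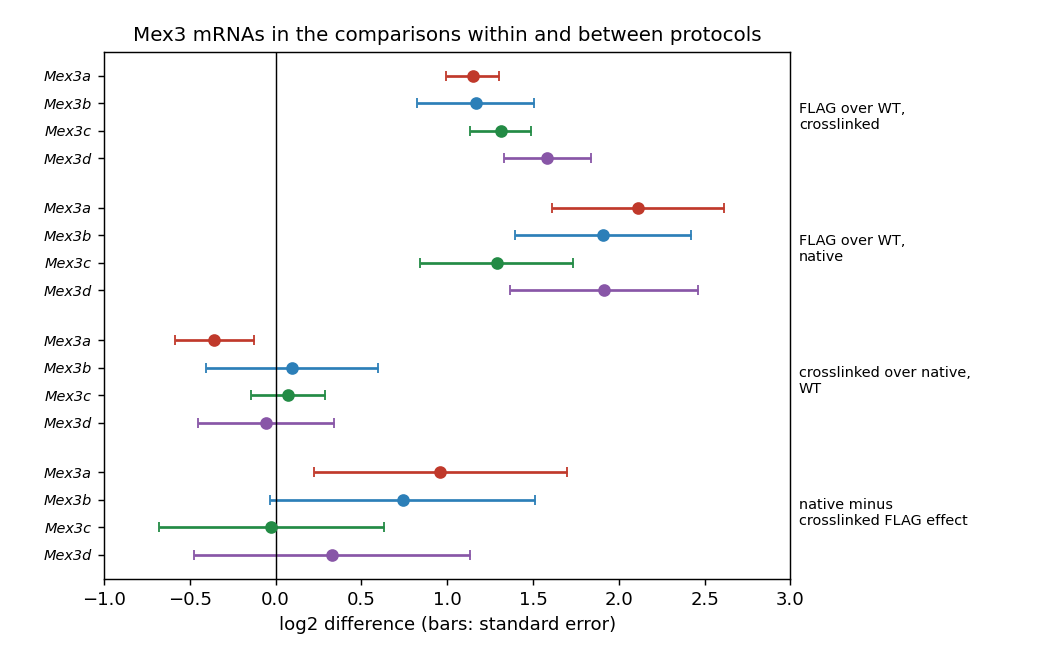
Log2 difference of each Mex3 mRNA (x axis, points with standard errors from limma) for FLAG over WT in each protocol, for crosslinked over native in WT, and for the difference between the FLAG effects of the protocols. The 8 points of FLAG over WT lie between 1.15 and 2.11, and those of crosslinked over native in WT between -0.36 and 0.10.

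Levels of the members were compared per kb of exon, subtracting the log2 of the exonic length (5.78 kb for Mex3a, 3.36 kb for Mex3b, 3.74 kb for Mex3c and 3.27 kb for Mex3d). Mex3c had the highest level per kb in all 4 groups, followed by Mex3a, Mex3d and Mex3b on the values as deposited. With a pseudocount of 8 the native WT level of Mex3d (1.68) lay above that of Mex3a (1.60). The linear values of Mex3d there (1.64 to 3.74) are smaller than the pseudocount, which was added before the length was subtracted. That order thus says little about the levels. In the crosslinked WT libraries the mean log2 level per kb was 1.76 ± 0.03 (SD, n = 2) for Mex3c, 0.36 ± 0.19 for Mex3a, -0.51 ± 0.21 for Mex3d and -0.70 ± 0.11 for Mex3b. In the native WT libraries (n = 3) it was 1.68 ± 0.33, 0.72 ± 0.32, -0.46 ± 0.60 and -0.79 ± 0.83 in the same order. Mex3c thus stood 2.64-fold above Mex3a with crosslinking and 1.96-fold without, with no overlap between the libraries. Mex3d and Mex3b overlapped in every group, so their order was not resolved.

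In the tagged pull-downs the distance between Mex3c and Mex3a depended on the protocol. With crosslinking the log2 level per kb was 3.07 ± 0.32 (SD, n = 2) for Mex3c and 1.51 ± 0.17 for Mex3a, a 2.95-fold difference without overlap. In native libraries it was 2.97 ± 0.99 and 2.83 ± 1.15 (SD, n = 3), and the values overlapped. In these native FLAG libraries each member overlapped the next in order.

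The nearest genes on the chromosome were also examined. Of the 16 nearest measured genes, with a pair on either side of each Mex3 gene, 1 was called over all libraries, where 0.264% of all genes were called higher and 0.233% lower. It was Rab25, which encodes a small GTPase of epithelial recycling endosomes and lies at chr3:88542029-88548300 on the minus strand, 633 nt past the end of Mex3a. With crosslinking its log2 values were 1.23 and 1.40 in FLAG and -2.04 and -2.08 in WT. In the native libraries they were 1.87, 1.70 and 0.55 in FLAG and -3.55, -2.96 and -2.33 in WT. Rab25 lay above 0.0440% to 0.522% of all genes in the WT libraries, at the bottom of the matrix, and above 12.9% to 33.0% in the FLAG libraries. In contrast to the Mex3 genes, native FLAG replicate 2 was not the lowest of its group for Rab25. The log2 fold change over all libraries was 3.94 (SE 0.40, limma adjusted p = 0.00405). On the linear scale these values were 0.0856 to 0.243 in WT and 1.47 to 3.65 in FLAG, so the fold rests on WT values near the floor of the matrix. With a pseudocount of 8 the log2 fold change of Rab25 was 0.38, below those of the Mex3 genes (0.51 to 1.18), and Rab25 was not called, nor was it tested with a minimum mean of 10.

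The next gene after Rab25, Lamtor2, a subunit of the Ragulator complex at lysosomes, had a log2 fold change of 1.57 with crosslinking and 1.11 without (all libraries 1.30, SE 0.40, limma adjusted p = 0.137). On the other side of Mex3a, Lmna, which encodes lamins A and C, was at 0.21 and Slc25a44 at 0.30. The neighbours of the other members did not follow them, but all of these lie further from their member than Rab25 does. The distances ran from 89481 nt (Efl1) to 725533 nt (Gm16638) for Mex3b and from 46434 nt (Smad4) to 2946913 nt (Mbd2) for Mex3c. For Mex3d they ran from 4880 nt (Mbd3) to 62092 nt (Apc2). Those of Mex3b ran from -0.69 (4933406J10Rik) to -0.04 (Gm16638), with Efl1 at -0.46 and Tmc3 at -0.05. Those of Mex3c, which lies at chr18:73573044-73592575 (plus strand), were Mbd2 at 0.06, Dcc at -0.27, Smad4 at -0.01 and Elac1 at -0.06. Those of Mex3d were Apc2 at -0.12, 2310011J03Rik at 0.45, Mbd3 at 0.29 and Uqcr11 at 0.51. The annotations of Mex3a and Rab25 do not overlap and they lie on opposite strands, with their 3' ends facing. Whether the counting used strand is not given in the sources used here, and whether reads past the end of Mex3a were counted to Rab25 was not tested.

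**Figure D4:**
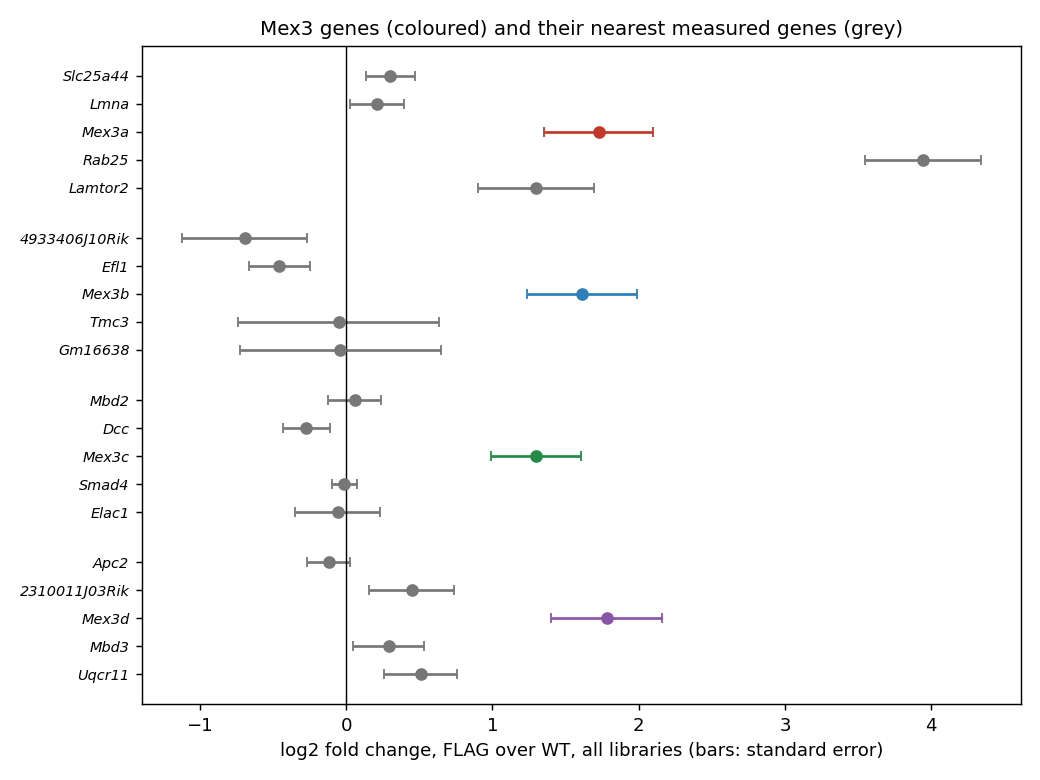
Log2 fold change of FLAG over WT over all libraries (x axis, bars are standard errors from limma) for the Mex3 genes (coloured) and the nearest measured genes on either side of each (grey), in the order of the chromosome coordinate. Rab25, next to Mex3a, lies at 3.94, and the neighbours of Mex3b, Mex3c and Mex3d lie between -0.69 and 0.51 while these 3 Mex3 genes lie between 1.30 and 1.78.

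The Mex3 mRNAs were next set beside the mRNAs of proteins with related domains or functions. Of 29 measured genes for KH-domain RNA-binding proteins, 0 were called over all libraries in either direction, and the median log2 fold change was 0.10. At an unadjusted p under 0.05 with a log2 fold change past 0.58, 3 were higher, against 7.24% of all genes. The values of this list ran from -0.45 (Bicc1, a translational repressor of kidney and embryo) to 0.96 (Khdrbs2, a splicing regulator also named SLM1), below the lowest Mex3 value of 1.30. Of 12 measured RING-finger proteins that bind RNA, 0 were called, the median was 0.10, and 2 were higher at an unadjusted p under 0.05 past the same fold change. They ran from -0.34 (Unkl) to 1.74 (Mkrn3, a makorin ubiquitin ligase), which is inside the range of the Mex3 genes over all libraries. Mkrn3 was at 0.34 with crosslinking and 2.68 without, while each Mex3 gene was at 1.15 or more in both protocols.

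A further list held 8 genes whose proteins are named in the text of the study among those that co-purified with MEX3A, which is only a part of them. All 8 mRNAs were measured, 0 were called, and the median was 0.27. At an unadjusted p under 0.05 with a log2 fold change past 0.58, 2 of the 8 were higher, against 7.24% of all genes (0.264% were called higher). They ran from -0.13 (Upf1, the helicase of nonsense-mediated decay) to 0.89 (Pabpc1, the cytoplasmic poly(A)-binding protein). Of genes related to known targets of MEX-3 proteins 3 of 7 were measured, and 0 were called. Bcl2, the mRNA bound by MEX3D in other cells, was at -0.19, and Nanos1, a relative of a worm MEX-3 target, was at 0.53. The list leaves out orthologs of proposed worm targets that the study names. Of these, Sox2 was at 0.98 (SE 0.23, limma adjusted p = 0.0865). All the medians stand beside a median of -0.03 over all genes and 1.67 over the Mex3 genes.

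**Figure D5:**
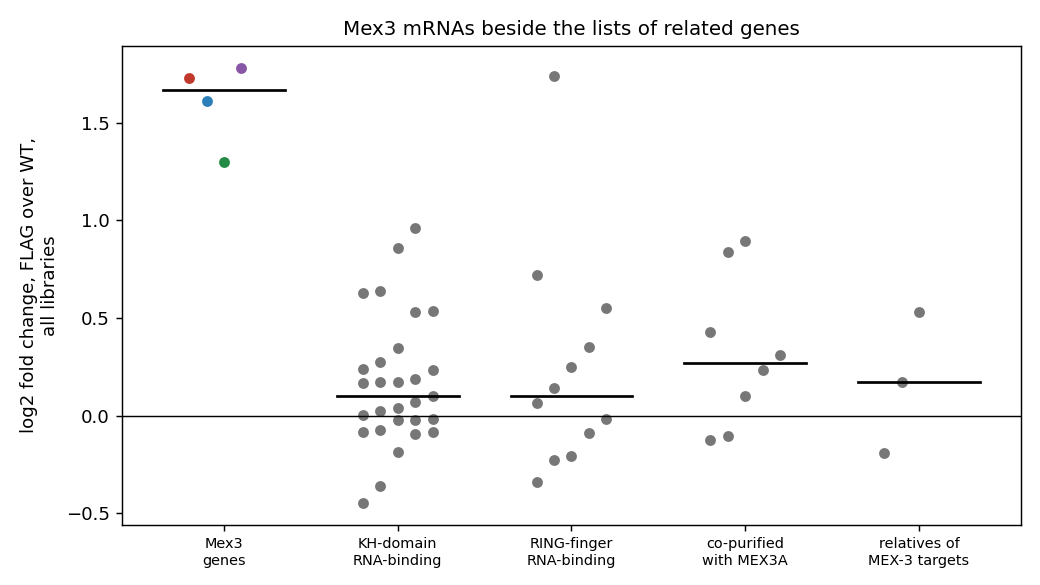
Log2 fold change of FLAG over WT over all libraries (y axis) for the 4 Mex3 genes and for the measured genes of 4 related lists, with 1 point per gene and a bar at each median. The Mex3 genes lie between 1.30 and 1.78, and the medians of the lists lie between 0.10 and 0.27.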

How the data were processed

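RNA from anti-FLAG pull-downs was measured in 10 libraries, and groups and replicate numbers came from the labels. The authors deposited 1 matrix of log2 values per gene. The submitters' processing notes name cutadapt and Trimmomatic for trimming, HISAT2 (GRCm38) for mapping, featureCounts for counting, and limma. The libraries' distributions are nearly identical, so values are relative, and a shift shared by all genes is removed. Libraries were primed with random hexamers, without poly(A) selection.

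The log2 values were tested as deposited in R 4.3.3 with limma 3.58.1 (lmFit, then eBayes allowing a trend), within each protocol, over all libraries with the protocol as covariate, and in a 4-group fit for the interaction. No count model was fitted, because the values are not counts. P-values were adjusted (Benjamini-Hochberg) over all genes. The steps were tested on simulated data. Members and lists were chosen with earlier results of these data known. Genes named are the members, the nearest genes on either side, the 3 most correlated genes of each member, the called, highest and lowest genes of each list, and cell type markers. Of the KH, RING and MEX-3 target lists 1, 1 and 4 genes are not analysed here. Alternatives were pseudocounts of 1 and 8, a minimum mean of 10 on the linear scale, quantile normalization, median centring, no trend, robust moderation, array weights, a 4-group fit, the replicate number as a block and each library left out. Libraries of 1 genotype with the same number deviated together across protocols in all 4 pairs. This is a weak hint from the data and not from the labels, since pairs with different numbers reached an r of 0.40. A culture block (genotype and number as a random block), crossed numbers and the removal of native FLAG replicates 1 and 3 were added after seeing the data.

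Sequences and gene structures came from GENCODE M21, in which 15864 of the genes were found, 14849 with the same start and end. Alignments used Biopython 1.88 (Python 3.11.15), and identity counts aligned bases without gaps. Figures were drawn with matplotlib 3.10.9.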

Additional observations from a re-analysis of the deposited data

How the results depend on the processing

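All Mex3 log2 fold changes of FLAG over WT stayed positive in every alternative run for them. With a pseudocount of 8 their median was 0.60 (crosslinked), 0.85 (native) and 0.80 (all libraries). With array weights all 4 were called in the native libraries (10.4% of all genes were) and over all libraries (6.95%), with a native median of 2.42. Leaving out 1 library, the median ran from 1.06 to 1.57 (crosslinked), 1.54 to 2.42 (native), 1.45 to 1.92 (all libraries) and -0.35 to 0.26 (crosslinked over native in WT). The number called ran from 0 to 4 in the native libraries and over all libraries, and was 0 with crosslinking. Without native FLAG replicates 1 and 3 the median was 0.76 (native) and 1.05 (all libraries). The calls among the 16 neighbouring genes went from 1 to 0 with a pseudocount of 8 and with a minimum mean of 10, which left out Rab25, and to 5 with array weights. The filter also left out Mex3b and Mex3d. Genes called higher over all libraries, 42 as reported, numbered 10 with a pseudocount of 8, 8 in the 4-group fit, and 4 to 516 with 1 library left out. The level per kb in native WT with a pseudocount of 8 was 1.60 (Mex3a), 1.59 (Mex3b), 2.43 (Mex3c) and 1.68 (Mex3d), which turned the order of Mex3a and Mex3d, and the median place of the Mex3 genes in each other's order of likeness was 78.5 with Spearman's correlation and 401.5 with group means subtracted. Except where named, the cause of these moves was not tested.

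Same-numbered FLAG and WT libraries did not deviate together (r from -0.43 to -0.15), so the values gave no sign that the numbers pair them. With the replicate block the Mex3 medians of FLAG over WT could not move, because each number holds a FLAG and a WT library in each protocol. With this block 0 Mex3 genes were called, and 14 genes in all were called higher over all libraries. Crosslinked over native in WT gave a median of -0.35, the same as without native WT replicate 3. Across protocols the same numbers correlated at r from 0.15 to 0.39, but pairs with different numbers reached 0.40. A culture block over the numbers gave limma adjusted p-values of 0.159 to 0.169 over all libraries, 0 Mex3 genes called and 7 genes called higher. With crossed numbers in the crosslinked libraries 0 genes were called higher. Depth is unknown, groups hold 2 or 3 libraries, and calls in lists reached 3 with array weights against 0.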
